A study of Mus musculus with 1 sample.

Results

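The 50 genes described here act in the G2 and mitosis phases of the cell cycle and come from a list in common use for scoring those phases in single cells. They are not the whole of that list, since Ctcf, Hn1 and Fam64a, for example, are treated here as other mitosis genes. They were found by symbol in a table of 51912 gene rows, of which 30073 held at least 1 unique molecular identifier (UMI), the tag that lets copies of a captured transcript be counted once. All 50 genes held UMIs, from 117 for Gtse1 to 24922 for Cbx5. The table came from sc-RNA Seq of newborn (P0) mice, namely the cerebral cortex of wild-type (WT) C57BL/6 animals, which the study set beside mice that carry human SERPINA3. The WT library held 11062 cells and 90346034 UMIs, with a median of 7196.5 UMIs per cell. The knock-in cells were not analysed here, and the labels do not say how many animals gave the WT cells. Because there was 1 library, the values have no replicate error and no test was possible. Intervals in brackets are exact 95% intervals for counting error only, and UMIs of the same cell are not independent.

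A dividing cell copies its DNA in S phase, builds up mitotic kinases and cyclins in G2, and then condenses, aligns and separates its chromosomes in mitosis. Many genes for these steps are transcribed late in the cycle and are silenced when a cell leaves it. In the newborn cortex, radial glia, intermediate progenitors and oligodendrocyte precursors still divide, whereas excitatory neurons have left the cycle for good. Some proteins of the list, however, also serve cells that do not divide, such as tubulins and proteins of the nuclear envelope and of packed chromatin.

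Cells were sorted into 5 gates by the UMIs of markers outside the list. Oligodendrocyte precursor-like (OPC-like) cells held Pdgfra and Olig1 or Olig2 (148 cells). Radial glia-like cells held Fabp7, Aldoc, Hes5, Mfge8 or Ednrb (312 cells), Eomes-positive cells held Eomes, a factor of intermediate progenitors and newborn neurons (202 cells), and interneuron-like cells held Gad1, Gad2 or Dlx6os1 (364 cells). Excitatory neuron-like cells held Neurod2, Neurod6 or Bhlhe22 and no Eomes (6376 cells). A further 195 cells with Olig1 or Olig2 but no Pdgfra passed no gate and are described beside the 5. Of other markers that the gates did not use, 8 of 8 were highest in radial glia-like, 7 of 7 in interneuron-like, 5 of 6 in Eomes-positive, 5 of 7 in excitatory neuron-like and 4 of 6 in OPC-like cells. The exceptions were Gadd45g, which was highest in interneuron-like cells, Tbr1 and Slc17a6, which were highest in Eomes-positive cells, and Ptprz1 and Cspg5, which were highest in radial glia-like cells. Radial glia were not separated from astrocytes. Aldh1l1, which the study used as an astrocyte marker, was highest in the radial glia-like gate at 268 CPM (counts per 1e6 UMIs). The radial glia-like gate also held 37 cells with at least 3 UMIs of mural cell markers, and the interneuron-like gate held 43 such cells for Cajal-Retzius markers. Without cells that held markers of microglia, vessels, blood or Cajal-Retzius cells, the summed level of the 50 genes was 4547 instead of 4364 counts per 1e6 UMIs (CPM) in radial glia-like cells and 3833 instead of 3356 CPM in interneuron-like cells.

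The first question was where the G2 and mitosis genes were on. Their summed UMIs were 5168 CPM (5035 to 5303) in OPC-like cells, 4364 CPM (4280.5 to 4448) in radial glia-like cells, 4244 CPM (4148 to 4342) in Eomes-positive cells and 3356 CPM (3281 to 3432) in interneuron-like cells, where mitochondrial UMIs were left out of the total. They were 1106 CPM (1099 to 1114) in excitatory neuron-like cells. The levels were thus 4.67-fold, 3.94-fold, 3.84-fold and 3.03-fold the neuron level. These folds depend on which genes are summed. Hn1, left out here, was the other mitosis gene highest in neurons relative to the 4 other gates. It alone was at 1546 CPM in excitatory neuron-like cells and at most 1346 CPM in the 4 other gates. Radial glia-like and Eomes-positive cells were not told apart by counting error (ratio 1.03, 0.998 to 1.06). The highest sum, 9890 CPM (9741 to 10042), was in the Olig-positive, Pdgfra-negative cells, 1.91-fold (1.86 to 1.97) that of the OPC-like cells. When the limits of all gates were divided by 2, the Eomes-positive sum was 2208 CPM and its ratio to neurons 1.99, so that it lay below interneuron-like cells (2829 CPM). With all limits multiplied by 2 it lay above OPC-like cells, at 5286 against 4756 CPM.

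**Figure D1:**
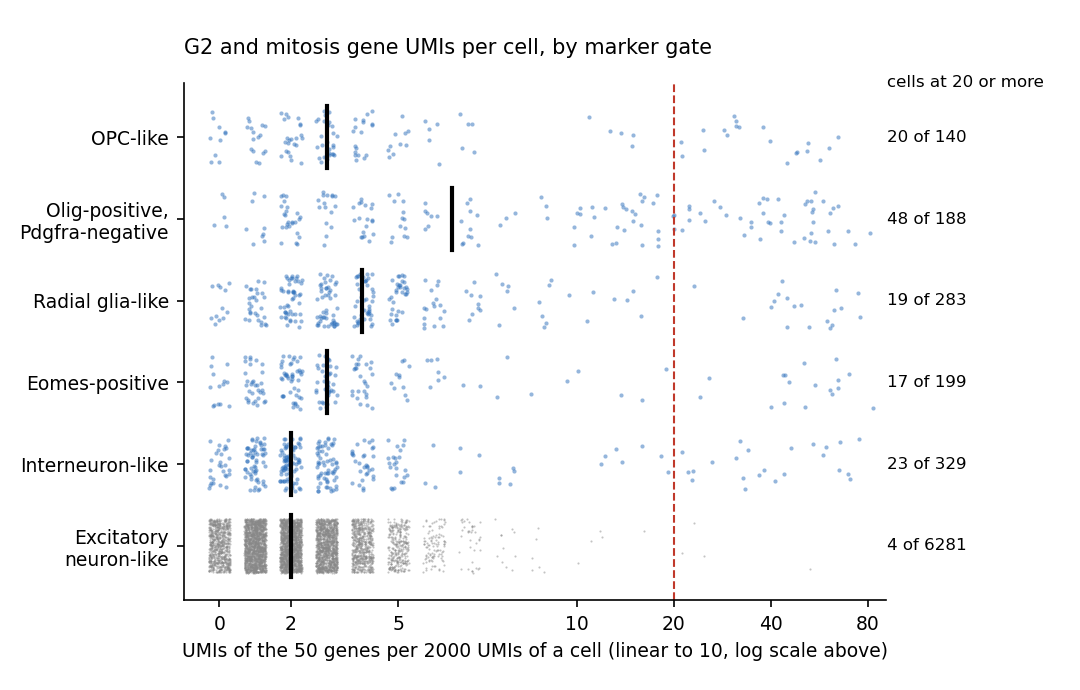
Each dot is a cell thinned to 2000 non-mitochondrial UMIs, placed by how many of these came from the 50 G2 and mitosis genes (linear axis to 10, log axis above), in the 5 gates and the Olig-positive, Pdgfra-negative cells. Black bars are medians, the dashed line marks 20 UMIs, and the numbers at the right count cells at or past it, which were 4 of 6281 excitatory neuron-like cells and 48 of 188 Olig-positive, Pdgfra-negative cells.

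Outside neurons, a small share of cells carried most of these UMIs. Each cell was thinned to 2000 UMIs, and a cell was called rich when at least 20 of these came from the list. Of 8446 cells deep enough, 160 were rich. They were 20 of 140 OPC-like cells or 14.3% (8.95 to 21.2), 17 of 199 Eomes-positive cells or 8.54% (5.06 to 13.3), 23 of 329 interneuron-like cells or 6.99% (4.48 to 10.3) and 19 of 283 radial glia-like cells or 6.71% (4.09 to 10.3). These 4 intervals overlap. Among Olig-positive, Pdgfra-negative cells 48 of 188 were rich, or 25.5% (19.5 to 32.4), and they made up 30% of all rich cells. Among excitatory neuron-like cells 4 of 6281 were rich, or 0.0637% (0.0174 to 0.163), and 3 of these 4 held at least 5 UMIs of the radial glia-like gate genes. Rich cells held 73.1% of the list UMIs of OPC-like, 59.7% of radial glia-like, 66.2% of Eomes-positive and 64.1% of interneuron-like cells and 79.3% of those of Olig-positive, Pdgfra-negative cells, but 1.34% of those of excitatory neuron-like cells. Without thinning, at 1% or more of a cell's UMIs, the shares were 13.5% for OPC-like, 8.42% for Eomes-positive, 6.32% for interneuron-like, 7.05% for radial glia-like and 0.0627% for excitatory neuron-like cells. At a limit of 40 in place of 20 UMIs, the OPC-like share was 6.43%, below the 7.54% of Eomes-positive cells. The interneuron-like share was then 3.34% and the excitatory neuron-like share 0.0159%. With the limits of all gates divided by 2, the Eomes-positive share was 2.93%.

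A typical cell of each gate, in contrast, held few of them. The median cell held 3 of 2000 UMIs in OPC-like, 4 in radial glia-like, 3 in Eomes-positive, 2 in interneuron-like and 2 in excitatory neuron-like cells, and 6.5 in Olig-positive, Pdgfra-negative cells. The UMIs of rich cells came from a median of 21 distinct genes in OPC-like, 25 in radial glia-like, 26 in Eomes-positive and 21 in interneuron-like cells. Near the limit lay 31 cells with 15 to 19 UMIs and, among the 160 rich cells, 23 with 20 to 24 UMIs. Rich cells were also deeper, for example with medians of 12336 against 7394 UMIs in OPC-like and 18031 against 9715 UMIs in excitatory neuron-like cells. The part of depth in the shares was not tested beyond the thinning.

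Gene by gene, the neurons split the list. A gene was counted as staying on when its CPM in excitatory neuron-like cells was at least 0.2 of its CPM in the highest of the 4 other gates. By this limit 11 of the 50 genes stayed on, against 87.2% of the 14840 genes with at least 100 UMIs in the library. These were Tubb4b at 1.24 of the highest gate, Rangap1 at 0.886, Cbx5 at 0.744, Ckap5 at 0.571, Ncapd2 at 0.414, Hjurp at 0.367, Lbr at 0.248, Tmpo at 0.238, Anp32e at 0.237, Cks1b at 0.223 and Anln at 0.205. The nearest gene below the limit was Kif20b at 0.141. The median over the 50 genes was 0.0344, against 0.686 over all genes tested. The 11 genes gave 90.0% of the list's UMIs in neurons but 33.2% in OPC-like, 32.6% in radial glia-like, 35.7% in Eomes-positive and 41.0% in interneuron-like cells. When they were left out of the sum, the ratio to neurons was 31.3 for OPC-like, 26.7 for radial glia-like, 24.8 for Eomes-positive and 18.0 for interneuron-like cells. The direction of both results was fixed in advance, since the 11 genes were chosen by their neuron level in these same cells. Nothing is read from it. With the Olig-positive, Pdgfra-negative cells added to the gates compared, 7 genes stayed on (86.6% of all genes tested), without Anln, Anp32e, Cks1b and Tmpo, and at a limit of 0.5 in place of 0.2 there were 4 (68.2% of all genes).

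**Figure D2:**
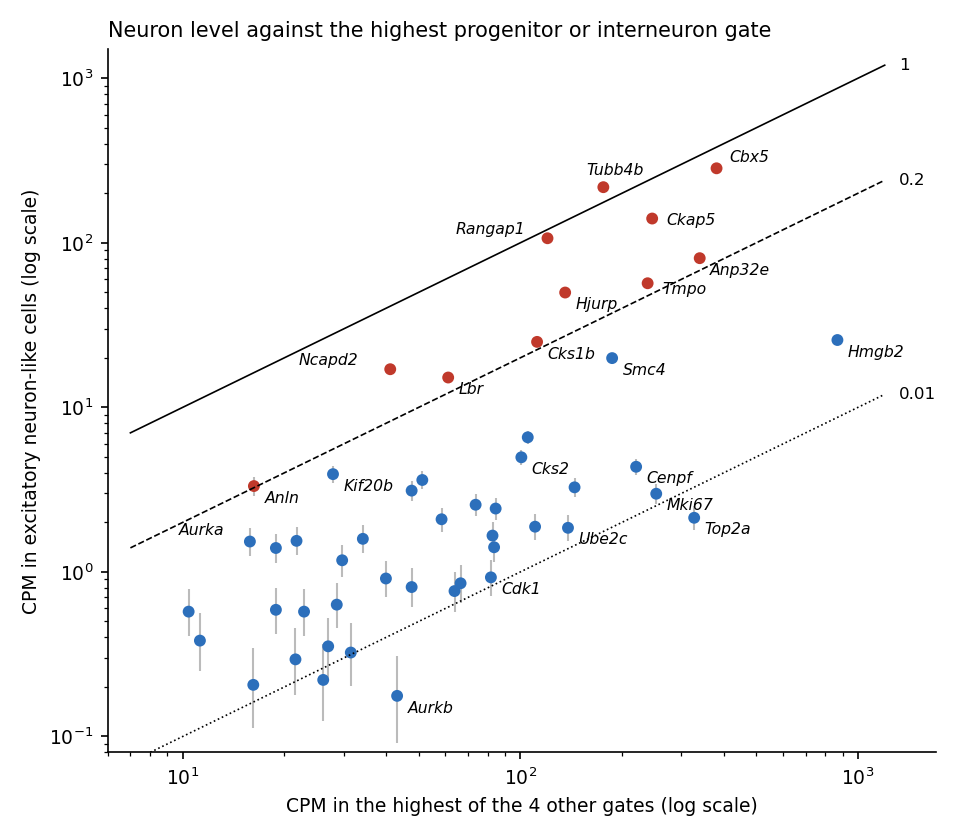
Each point is 1 of the 50 genes, with its CPM in the highest of the 4 progenitor and interneuron gates on the horizontal axis and its CPM in excitatory neuron-like cells, with the counting interval, on the vertical axis, both on log scales. Lines mark ratios of 1, 0.2 and 0.01, and red points are the 11 genes that stayed on, with Tubb4b as the gene above the line of 1.

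The other 39 genes had lower neuron ratios. The lowest ratio was that of Aurkb at 0.00409, followed by Top2a at 0.00652, Cdca2 at 0.00846, Dlgap5 at 0.0103, Cdk1 at 0.0113, Mki67 at 0.0118 and Kif11 at 0.0120. For comparison, markers of other cell types that the gates did not use stood in neurons at a median of 0.00676 of their own gate for interneuron-like, 0.0113 for radial glia-like, 0.0172 for OPC-like and 0.176 for Eomes-positive cells. The ratios of these 7 genes, the lowest of the 50, were all below the last pair of medians. Of the 7, Aurkb and Top2a alone were below the interneuron-like median, and Cdk1, Mki67 and Kif11 were not below the radial glia-like one. The ratio of a list gene uses the highest of the 4 other gates, that of a marker its own gate. Read in the other direction, at a fold of 4 or more with 1 CPM added on both sides, 42 of 50 genes were higher in OPC-like than in excitatory neuron-like cells (6.59% of all genes tested), 39 in radial glia-like (10% of all genes), 40 in Eomes-positive (3.87%) and 37 in interneuron-like cells (2.87%). None was lower by that fold in any gate, against 5.5%, 7.52%, 1.15% and 1.61% of all genes. The median log2 difference was 3.81, 3.56, 3.66 and 2.95, against 0.05, -0.01, 0.05 and 0.05 over all genes.

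The genes shared sequence features that their choice did not use. Promoter windows of 300 bases, from 250 before to 50 after the annotated start, were taken from a table of RefSeq promoters (GRCm38.p6), in which 44 of the 50 genes were matched by symbol. Aurkb, Cdc25c, Cdca2, Dlgap5, Smc4 and Tpx2 were not analysed here for promoter letters. The cell cycle genes homology region (CHR), through which late cell cycle genes are repressed in resting cells and activated in G2, was searched as TTTGAA or TTCGAA on both strands. It was found in 34 of 44 genes or 77.3%, against 21.7% of 27025 genes with a window and 15.6% of the 9917 of them with at least 100 UMIs here. In 28 genes or 63.6% it began in the last 100 bases of the window, against 6.12% of all genes. The CCAAT box, the letters bound by NF-Y, was found as CCAAT on either strand in 35 of 44 genes or 79.5%, against 41.1% of all genes and 43.1% of those with at least 100 UMIs, and both motifs were in the same window in 28 genes or 63.6%, against 8.61% and 6.56%. In 1 window the letters of both overlapped. E2F letters, TTCCCGC or TTGGCGC, were in 7 of 44 genes or 15.9%, against 7.79% of all genes and 14.5% of genes with at least 100 UMIs. Such letters are a description of these windows and not shown binding sites.

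Genes that stayed on in neurons did not lack these letters. The CHR was found in 10 of the 11 that stayed on and in 24 of the 33 that did not, and both motifs together in 7 of 11 and 21 of 33, or 63.6% in either case. Of 49 other mitosis genes with a window, 35 held the CHR. The windows printed here show 4 genes that did not stay on in neurons and then 2 that stayed on, each read 5′ to 3′ along the gene, with the CHR in capitals (TTCAAA is the CHR read from the opposite strand). They are Top2a (chr11:99024140-99024439, minus strand) with the CHR at bases 72, 111, 131 and 228, Cdk1 (chr10:69352863-69353162, minus strand) at 180 and 236, Cdc20 (chr4:118437294-118437593, minus strand) at 233, Ube2c (chr2:164769679-164769978, plus strand) at 222, Tubb4b (chr2:25224653-25224952, minus strand) at 53 and Cbx5 (chr15:103239803-103240102, minus strand, the first of 2 windows) with none, where positions are counted from 1 at the 5′ end of the window.
Top2a: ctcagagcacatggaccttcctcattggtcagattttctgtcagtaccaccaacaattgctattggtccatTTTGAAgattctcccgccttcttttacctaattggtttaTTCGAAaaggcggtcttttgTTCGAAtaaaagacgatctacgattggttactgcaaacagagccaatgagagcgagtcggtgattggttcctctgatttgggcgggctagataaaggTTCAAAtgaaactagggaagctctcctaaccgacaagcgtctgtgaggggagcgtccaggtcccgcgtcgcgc
Cdk1: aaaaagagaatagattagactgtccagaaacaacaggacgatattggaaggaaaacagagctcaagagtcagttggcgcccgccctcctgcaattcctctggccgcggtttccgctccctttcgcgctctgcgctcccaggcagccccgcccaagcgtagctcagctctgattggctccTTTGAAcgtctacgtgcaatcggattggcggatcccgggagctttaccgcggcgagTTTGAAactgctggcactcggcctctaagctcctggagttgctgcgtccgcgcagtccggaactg
Cdc20: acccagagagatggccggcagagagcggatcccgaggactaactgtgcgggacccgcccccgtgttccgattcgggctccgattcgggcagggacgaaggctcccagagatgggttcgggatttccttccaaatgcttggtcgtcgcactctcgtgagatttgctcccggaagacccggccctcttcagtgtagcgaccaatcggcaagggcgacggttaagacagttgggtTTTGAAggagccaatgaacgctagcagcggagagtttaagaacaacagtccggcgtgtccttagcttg
Ube2c: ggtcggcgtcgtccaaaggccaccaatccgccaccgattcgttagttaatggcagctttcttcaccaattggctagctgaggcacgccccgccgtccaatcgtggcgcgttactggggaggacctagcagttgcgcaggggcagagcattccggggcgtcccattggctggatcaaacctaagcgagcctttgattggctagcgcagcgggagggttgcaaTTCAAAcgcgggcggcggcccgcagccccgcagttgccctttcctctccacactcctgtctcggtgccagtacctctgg
Tubb4b: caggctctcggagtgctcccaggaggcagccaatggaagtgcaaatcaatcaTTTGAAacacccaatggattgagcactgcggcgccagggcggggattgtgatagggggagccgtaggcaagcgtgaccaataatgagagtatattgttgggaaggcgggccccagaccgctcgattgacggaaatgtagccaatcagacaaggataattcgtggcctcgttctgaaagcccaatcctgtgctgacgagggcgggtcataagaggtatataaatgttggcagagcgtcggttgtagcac
Cbx5: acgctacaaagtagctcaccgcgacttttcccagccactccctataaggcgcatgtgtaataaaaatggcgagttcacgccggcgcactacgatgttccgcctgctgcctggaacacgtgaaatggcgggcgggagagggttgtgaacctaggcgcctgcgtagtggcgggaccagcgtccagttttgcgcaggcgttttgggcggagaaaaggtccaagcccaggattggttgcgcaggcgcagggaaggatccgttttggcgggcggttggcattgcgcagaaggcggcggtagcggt
In Top2a, Cdk1, Cdc20 and Ube2c a CHR lay within the last 100 bases of the window, and that of Tubb4b lay upstream of them. Tubb4b and Cbx5 are not typical of the genes that stayed on, of which 7 of 11 held a CHR there, against 21 of 33 of the others, or 63.6% in either case.

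**Figure D3:**
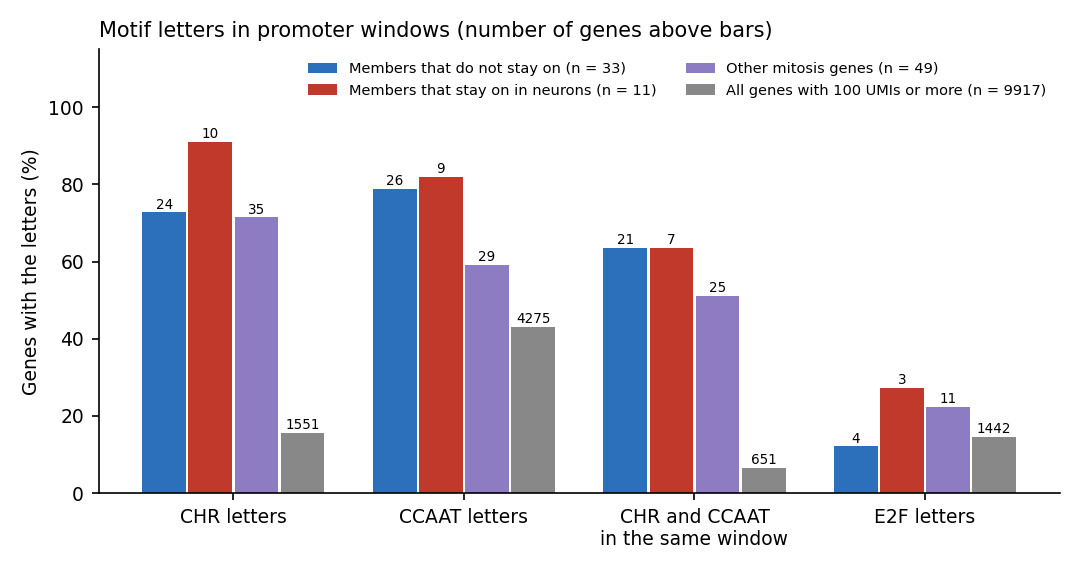
Bars give the percent of genes whose promoter window held the letters of the CHR, the CCAAT box, both, or an E2F site, for the 33 members that did not stay on, the 11 that stayed on, 49 other mitosis genes and 9917 genes with at least 100 UMIs, with gene counts above the bars. The CHR was in 24, 10, 35 and 1551 of them.

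The results are now given by the role of each gene, beginning with the kinases, cyclins and their activators, of which 1 of 10 stayed on. Cdk1, the kinase that drives entry into mitosis, was at 81.8 CPM in OPC-like, 72.5 in radial glia-like, 45.2 in Eomes-positive, 50.5 in interneuron-like and 0.927 CPM (0.712 to 1.19) in excitatory neuron-like ones. Its level in Olig-positive, Pdgfra-negative cells was 233 CPM, the highest of the 6 groups. Its cyclin partners followed the same order of magnitude, with Ccnb1 at 24.6 to 47.6 CPM in the 4 gates and 0.809 CPM in neurons, and Ccnb2 at 15.8 to 29.7 and 1.18 CPM. Cdc25c, the phosphatase that activates Cdk1, had 0.206 CPM (0.113 to 0.346) in neurons, from 14 UMIs. The kinases Aurka, which matures the spindle poles, and Nek2, which separates the centrosomes, were low in each gate, at 11.4 to 15.8 CPM and 5.71 to 10.4 CPM.

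The exception was Cks1b, a small Cdk-binding protein. It was at 107 CPM in OPC-like, 75.4 in radial glia-like, 112 in Eomes-positive and 81.3 CPM in interneuron-like cells and kept 25 CPM (23.8 to 26.2) in neurons. Its paralog Cks2 was at a like level in the first 3 gates, 92.9 to 100.7 CPM, but had 4.97 CPM (4.46 to 5.53) in neurons. The UMI ratio of Cks1b to Cks2 was 1.06 in OPC-like, 0.812 in radial glia-like, 1.11 in Eomes-positive and 1.80 in interneuron-like cells and 5.03 (4.47 to 5.67) in neurons, so that the pair was most unequal in neurons.

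None of the 4 genes of the spindle checkpoint and the anaphase promoting complex stayed on. Ube2c, the ubiquitin-conjugating enzyme of that complex, was higher in Olig-positive, Pdgfra-negative cells than in any of the 5 gates. Of the gates it was highest in Eomes-positive cells at 138 CPM, with 120 CPM in OPC-like, 83.3 in radial glia-like, 101 in interneuron-like and 1.85 CPM (1.54 to 2.21) in excitatory neuron-like ones. Cdc20, its activator, was at 58.4, 39.2, 56.6, 23.7 and 2.09 CPM in the same order of gates, beginning with OPC-like cells. The checkpoint kinases Bub1 and Ttk were at 9.66 to 21.6 CPM and 5.71 to 18.9 CPM in the 4 other gates and at 0.294 and 0.588 CPM in neurons.

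The chromosomal passenger complex, which corrects wrong attachments of chromosomes to the spindle, had 0 of 3 genes staying on in neurons. Aurkb, its kinase, was at 43.2 CPM in OPC-like, 32.5 in radial glia-like, 24.6 in Eomes-positive and 30.3 CPM in interneuron-like cells and at 0.177 CPM (0.0912 to 0.308) in neurons, from 12 UMIs in 6376 cells. It was the gene of the list with the lowest neuron ratio. Birc5, or survivin, and Cdca8, or borealin, had 1.88 and 6.58 CPM in neurons and at most 111 and 105 CPM in the other gates.

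**Figure D4:**
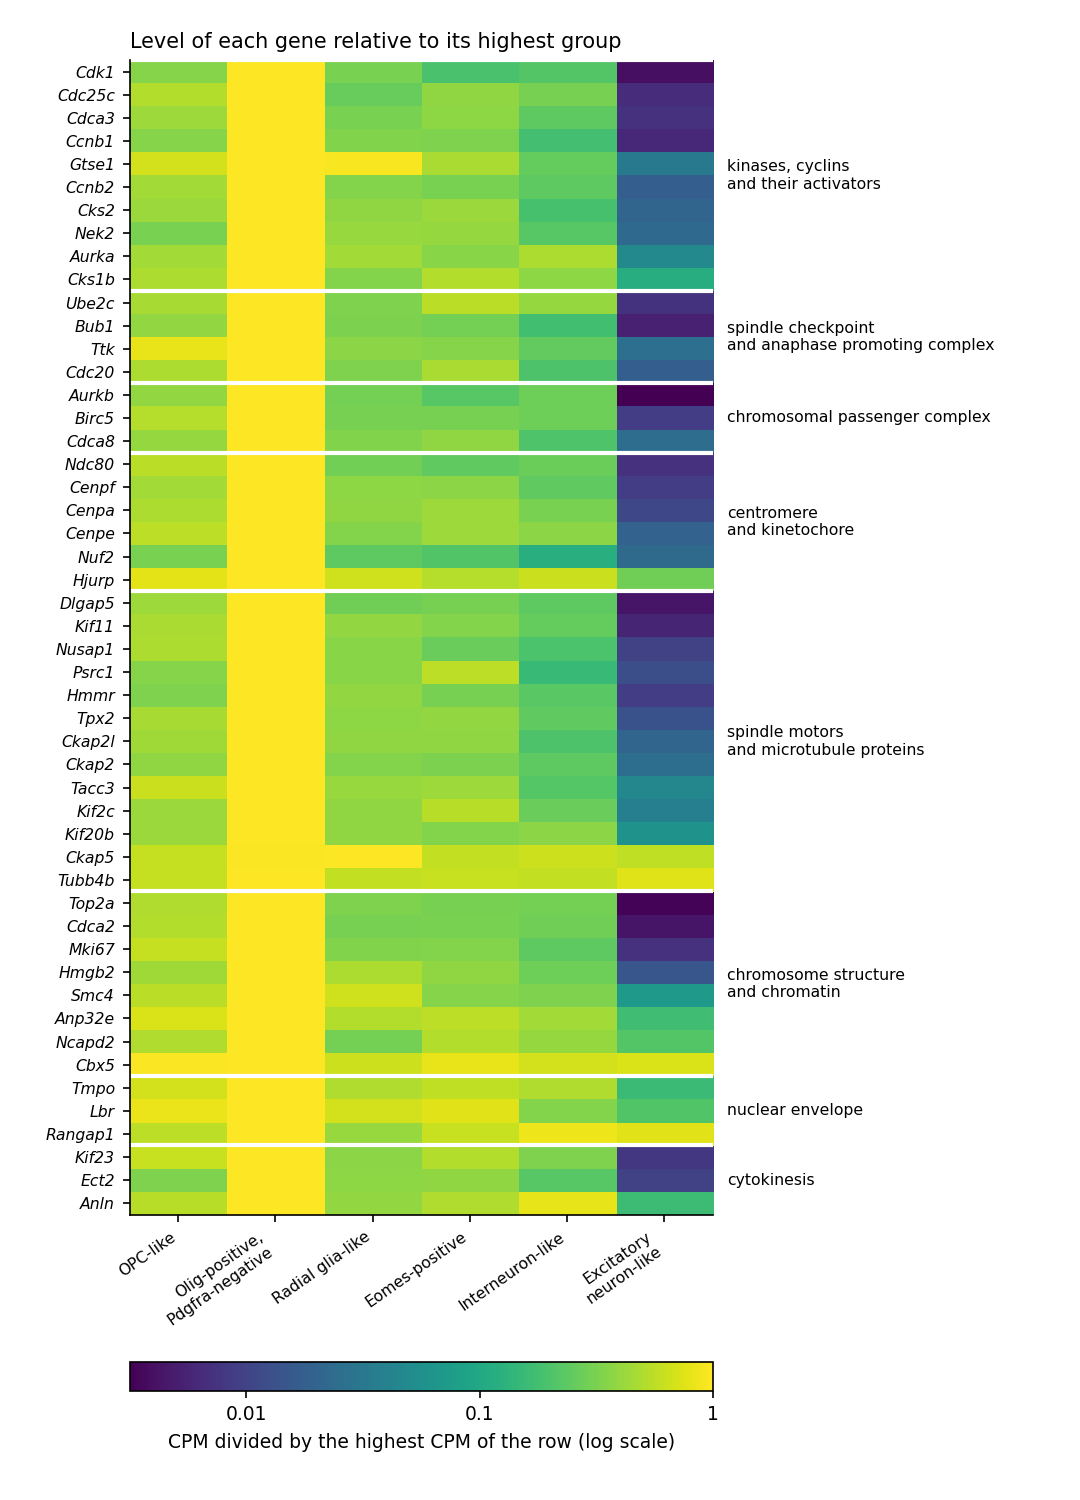
Each row is 1 of the 50 genes, grouped by role, and each column 1 of the 5 gates or the Olig-positive, Pdgfra-negative cells. Colour gives the CPM divided by the row's highest CPM on a log scale, with the darkest colour also standing for lower values. Most rows are brightest in Olig-positive, Pdgfra-negative cells and dark in neurons, and the 3 nuclear envelope genes keep colour in neurons.

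Among centromere and kinetochore genes 1 of 6 stayed on. Cenpf, a large kinetochore protein, was at 220 CPM in OPC-like cells and 4.35 CPM (3.87 to 4.88) in neurons, and Cenpa, the histone variant that marks centromeres, at 145 and 3.27 CPM. Cenpe, a kinetochore motor, and Ndc80 and Nuf2, which bind microtubules as partners, had 2.56, 0.353 and 1.40 CPM in neurons. Although Ndc80 and Nuf2 work in the same complex, the UMI ratio of Ndc80 to Nuf2 was 0.955 to 1.94 in the 4 gates and 0.253 (0.154 to 0.399) in neurons, on 24 and 95 neuron UMIs. Hjurp, the chaperone that loads Cenpa, was the exception at 91 to 136 CPM in the 4 other gates and 49.9 CPM (48.2 to 51.6) in neurons, so that the chaperone stayed on where its cargo did not.

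Spindle motors and microtubule proteins formed the largest group, and 2 of 13 stayed on. Tubb4b, a beta-tubulin that is also part of neuronal microtubules, was at 174 CPM in OPC-like, 171 in radial glia-like, 176 in Eomes-positive, 171 in interneuron-like and 218 CPM (214 to 221) in excitatory neuron-like ones, the gene of the list whose neuron level was above that of the 4 gates. Its level in Olig-positive, Pdgfra-negative cells was 288 CPM. Ckap5, a microtubule polymerase, was highest in radial glia-like cells at 246 CPM and kept 140 CPM (138 to 143) in neurons. The motors Kif11, which pushes the spindle poles apart, and Kif2c, which shortens microtubules, were at 34.3 to 63.8 and 10.98 to 21.7 CPM in the 4 other gates. In neurons they were at 0.765 and 1.54 CPM. Kif20b kept more in neurons, 3.93 CPM (3.47 to 4.43) against 22.9 to 27.9 CPM in the 4 other gates. Tpx2, Nusap1, Hmmr, Dlgap5, Psrc1, Tacc3, Ckap2 and Ckap2l, which build or bundle the spindle, had neuron levels from 0.324 CPM for Dlgap5 to 3.62 CPM for Tacc3.

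Chromosome structure and chromatin genes varied widely, with 3 of 8 staying on and ratios from 0.00652 to 0.744. Top2a, the topoisomerase that untangles sister chromosomes, was at 327 CPM in OPC-like, 214 in radial glia-like, 199 in Eomes-positive, 195 in interneuron-like and 2.13 CPM (1.80 to 2.51) in excitatory neuron-like ones. After thinning it was found in 15% of OPC-like cells, 8.83% of radial glia-like, 8.04% of Eomes-positive, 7.29% of interneuron-like and 0.255% of neurons (1.18% of neurons without thinning). Mki67, the proliferation antigen that coats mitotic chromosomes, gave 253, 142, 144, 99.3 and 2.99 CPM in the same order. Hmgb2, a DNA-bending protein, was the most abundant gene of the list in each of the 4 gates other than neurons. Of these gates it was highest in radial glia-like cells at 869 CPM, where 59.0% of thinned cells held it against 5.22% of neurons. Its level in Olig-positive, Pdgfra-negative cells was higher still.

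Cbx5, or HP1 alpha, which binds silent chromatin, showed almost no such contrast. It was at 381 CPM in OPC-like, 255 in radial glia-like, 325 in Eomes-positive, 269 in interneuron-like and 284 CPM (280 to 288) in excitatory neuron-like ones, and was found in 52.9%, 39.6%, 45.7%, 40.4% and 44.6% of thinned cells. Anp32e, a chaperone of a histone variant, kept 80.6 CPM in neurons against 214 to 340 CPM, and the condensin subunit Ncapd2 kept 17.1 CPM against 24.2 to 41.2 CPM. Smc4, a core subunit of the same condensin, kept 19.9 CPM (18.9 to 21.0) against 93.1 to 187 CPM in those gates and did not reach the limit for staying on.

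All 3 nuclear envelope genes stayed on, as did 87.2% of all genes tested, and Tmpo was below the limit, at 0.160, once the Olig-positive, Pdgfra-negative cells were among the gates. Tmpo, which encodes lamina-associated polypeptide 2, was at 177 to 238 CPM in the 4 other gates and 56.8 CPM (55.0 to 58.6) in neurons. In the same order, Lbr, the lamin B receptor, was at 25.04 to 61.1 and 15.2 CPM, and Rangap1, which activates the GTPase Ran at nuclear pores, at 57.1 to 120.3 and 107 CPM (104 to 109). Of the gates, Rangap1 was highest in the interneuron-like one. That gate and the excitatory neuron-like gate held more of it than the OPC-like, radial glia-like and Eomes-positive gates. The Olig-positive, Pdgfra-negative cells were at 138 CPM. The 23 rich cells of the interneuron-like gate were at 300 CPM of Rangap1. Rich cells of the OPC-like, radial glia-like and Eomes-positive gates were at 264, 320 and 282 CPM. Whether interneuron-like cells without the rich ones lie above excitatory neuron-like cells in Rangap1 was not tested. In the annotation used here, exons of Rangap1 overlap those of Zc3h7b on the opposite strand (5726 UMIs), and whether counting used strand is not given in the sources used here. Of the cytokinesis genes, Anln, which binds the contractile ring, stayed on at 3.32 CPM (2.91 to 3.79) against 7.91 to 16.3 CPM in the 4 other gates. Kif23 and Ect2, which place the ring, had 0.853 and 0.574 CPM in neurons.

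Excitatory neuron-like cells were also compared by their Igfbpl1 UMIs. Igfbpl1 is a gene of newborn neurons, and 4182 excitatory neuron-like cells held at least 3 Igfbpl1 UMIs while 933 held none. The Igfbpl1-high cells were shallower, with a median of 8570 against 12722 UMIs, and the part of depth was not tested. Of the 50 genes, 18 were higher in Igfbpl1-high neurons by an interval above 1 (27.6% of all genes tested), 3 were lower (21.8% of all genes), 27 had an interval that holds 1, and 2 (Aurkb and Cdca2) had no UMI in Igfbpl1-negative neurons. Whether either share differs from that of all genes was not tested, and many of the 50 genes had few neuron UMIs. Among the genes that stayed on, Tmpo was 2.03-fold (1.82 to 2.26) higher in Igfbpl1-high neurons, Ncapd2 1.45-fold, Cbx5 1.38-fold (1.33 to 1.44), Anp32e 1.28-fold and Hjurp 1.23-fold. Rangap1 at 0.603 (0.569 to 0.640) and Tubb4b at 0.734 (0.704 to 0.766) were lower, and Ckap5 at 0.991 (0.938 to 1.05) was even. Among the rest, Top2a was 2.88-fold (1.59 to 5.73) higher, Hmgb2 1.63-fold and Smc4 1.5-fold, while Kif2c was lower at 0.444 (0.275 to 0.728).

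The spread of neuron UMIs over cells also differed between genes. For each gene, the 2% of neurons (128 cells) with the highest share of UMIs from the other 49 genes were taken. These cells hold about 1.11% of all neuron UMIs. They held 63.6% of the neuron UMIs of Dlgap5, 51.7% of Top2a, 44.4% of Cdk1, 40.5% of Ube2c and 28.6% of Mki67. Over the 39 genes that did not stay on the share ran from 4.36% for Smc4 and 4.76% for Kif2c to that of Dlgap5, with a median of 15.8%. Of the genes that stayed on, the same share ran from 0.870% for Rangap1 and 0.878% for Tubb4b to 2.85% for Ncapd2, with Cbx5 at 1.39% and a median of 2.01%. The ranges of both sets of genes did not overlap. Nothing is read from that, since the sets were split by the neuron level of the same genes in these same cells.

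Next, the genes were set beside 45 S phase genes to see their order within the cycle. A cell was called S phase rich when at least 10 of 2000 UMIs came from the S phase list. Of the 160 cells rich in G2 and mitosis genes, 51 were also S phase rich, or 31.9% (24.7 to 39.7), and the share was 60.6% at a limit of 6 UMIs and 15% at 15. By gate it was 10 of 20 in OPC-like, 6 of 19 in radial glia-like, 4 of 17 in Eomes-positive, 8 of 23 in interneuron-like and 15 of 48 in Olig-positive, Pdgfra-negative cells, with overlapping intervals. Only 1 of 6281 excitatory neuron-like cells was S phase rich, and 0 were rich in both, which allows a share of up to 0.0587% (exact binomial bound).

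Outside neurons and mixed cells, 47 cells were rich in both lists and 97 in G2 and mitosis genes only. The 97 held a median of 48 list UMIs and 5 S phase UMIs of 2000, and the 47 held 38 and 16. The ratio of the level in the 97 cells to that in the 47 had a median of 1.37 over the 50 genes, with 31 intervals above 1 (4.89% of all genes tested) and 3 below 1 (5.19% of all genes). Nothing is read from these counts, since both classes were drawn by the summed UMIs of the same genes. The ratios are given only as an order among the genes, set against their median. A median of the genes themselves balances such a split by construction, so no count over all 50 genes is given. The highest were Cdc20 at 3.29 (2.56 to 4.28), Cdc25c at 2.80, Nek2 at 2.72, Ube2c at 2.52 (2.18 to 2.93), Cenpf at 2.37, Cenpa at 2.33 and Ccnb1 at 2.16. Cdc20 and Ube2c, of the spindle checkpoint and the anaphase promoting complex, were among the 4 highest. The other genes of that role, Bub1 at 1.19 and Ttk at 0.999, had intervals that hold the median. The lowest were Cbx5 at 0.714 (0.613 to 0.831), Aurkb at 0.720 (0.587 to 0.884) and Top2a at 0.851 (0.786 to 0.921), and Mki67 at 0.977 (0.885 to 1.08), Smc4 and Cdk1 also had intervals below the median.

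**Figure D5:**
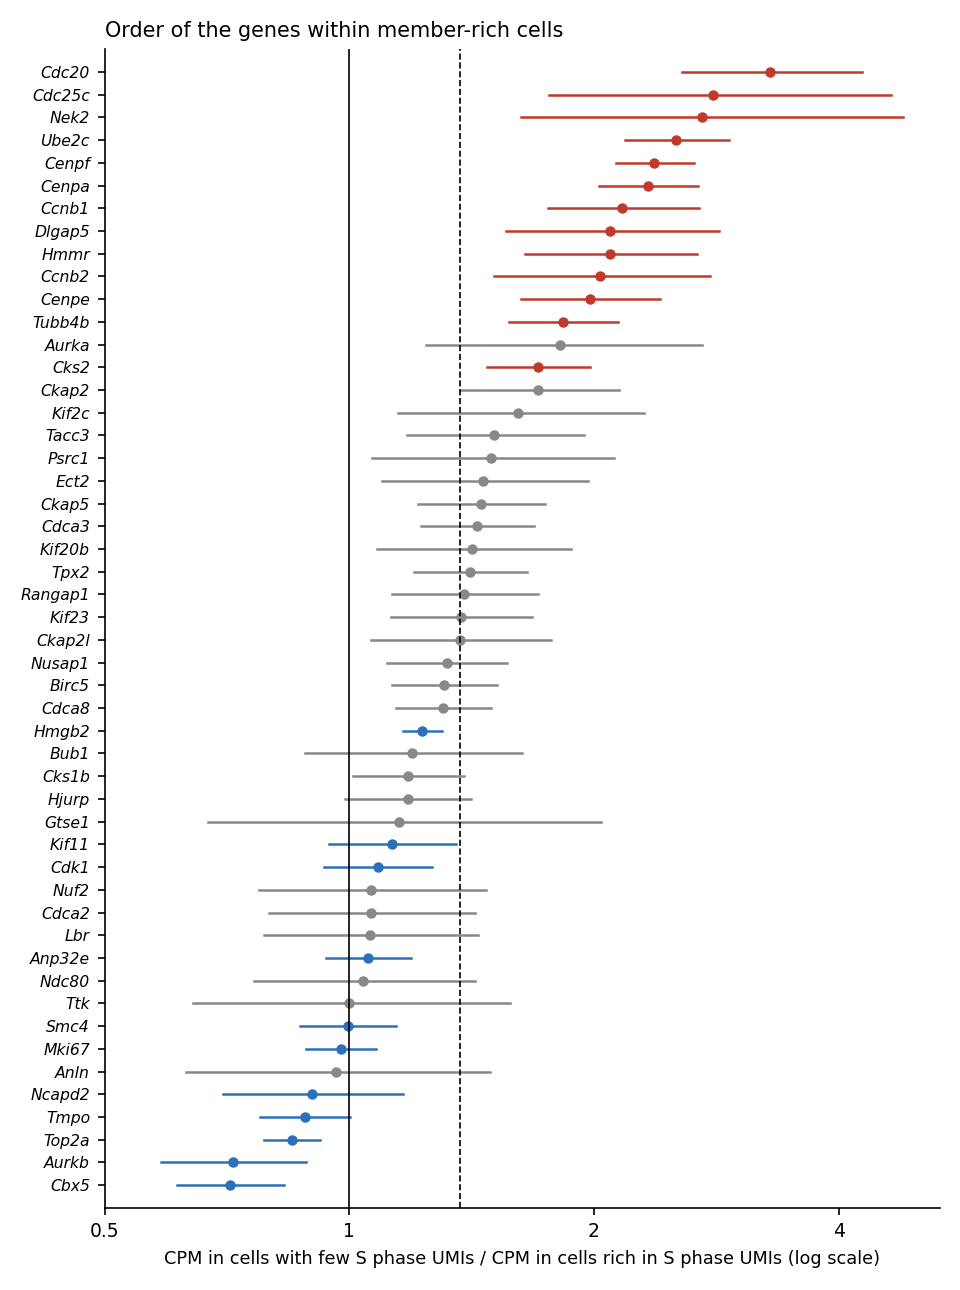
Points give, for each of the 50 genes, the CPM in 97 cells rich in G2 and mitosis genes with few S phase UMIs divided by the CPM in 47 cells rich in both, on a log scale, with the 95% counting interval as a line. The solid line marks 1 and the dashed line the median of 1.37. Red genes have intervals above the median, with Cdc20 the highest, blue ones below it, with Cbx5 the lowest, and grey ones hold it.

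The paralogs Aurka and Aurkb differed in this order. Aurka was at 1.82 (1.24 to 2.72), an interval that holds the median, while that of Aurkb lay below it. Ccnb1 at 2.16 and Ccnb2 at 2.03 both lay above the median, and Ndc80 at 1.04 and Nuf2 at 1.06 both held it. Among genes that stayed on in neurons, Tubb4b at 1.83 (1.57 to 2.14) lay above the median ratio, Cbx5, Tmpo, Ncapd2 and Anp32e lay below it, and the other 6 held it, such as Ckap5 at 1.45, Rangap1 at 1.38 and Cks1b at 1.18 (1.01 to 1.39). Nothing is read from these placings, since the classes were drawn by the same genes and the median is their own. Tubb4b, which was not higher in progenitor gates than in neurons, was at 728 CPM in the 97 cells, 398 CPM in the 47 and 143 CPM in cells rich in neither list. Cbx5 was at 395, 554 and 271 CPM, and so was highest in the cells rich in both. Both genes are part of the sum that drew these classes, so nothing is read from their higher levels in rich cells.

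Among rich cells, the levels of single genes were then compared between gates. The ratio of the highest to the lowest of the 4 gates and the Olig-positive, Pdgfra-negative cells had a median of 1.59 over the 50 genes, and in 3 genes its lower bound passed 1.5, a share near that of all genes tested (6.62%). Psrc1 was at 205 CPM in rich Eomes-positive and 69.3 CPM in rich interneuron-like cells, 2.96-fold (1.60 to 5.77). Cks2 was at 853 CPM in rich radial glia-like and 411 CPM in rich interneuron-like cells, 2.08-fold (1.61 to 2.69), and Anln at 134 CPM in rich interneuron-like and 46.0 CPM in rich Olig-positive, Pdgfra-negative cells, 2.91-fold (1.66 to 5.15). Top2a, in contrast, ranged from 1472 to 1945 CPM and Birc5 from 529 to 601 CPM. The gates with the lowest and highest values were picked after the values were seen.

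Other paralog and partner pairs were compared in the same way. The UMI ratio of Aurka to Aurkb was 0.333 to 0.522 in the 4 gates and 8.67 (4.76 to 17.3) in neurons, on 104 and 12 neuron UMIs. The ratio of Ccnb1 to Ccnb2 was 1.56 to 2.19 in the 4 gates and 0.688 (0.479 to 0.981) in neurons, that of Ckap2 to Ckap2l 1.33 to 1.91 and 1.96, and that of Cenpe to Cenpf 0.245 to 0.401 and 0.588 (0.485 to 0.711). These are ratios of UMIs at 3′ ends, without a division by length.

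Genes outside the list gave the context. Of 57 other mitosis genes with at least 100 UMIs, 12 stayed on in neurons with a median ratio of 0.0542, and the share was 24 of 44 for S phase genes (median 0.223), 8 of 18 for genes of cell cycle exit and G1 (0.123) and 4 of 9 for a list of histone genes (0.185). By the same limit 87.2% of all genes tested stayed on, with a median ratio of 0.686. Among other mitosis genes the lowest ratios were those of Kif18b at 0.00307 and Troap at 0.00409 and the highest those of Ctcf at 0.866, a factor of chromatin loops, and Hn1 at 1.15. Clspn at 0.00602, a replication checkpoint protein, and Hist1h1b at 0.00468, a linker histone, were as low in neurons as Aurkb, whereas Cdkn1c, an inhibitor of cyclin-dependent kinases, was at 1.52 and Ccnd2, a G1 cyclin, at 0.0142. The highest ratios were 0.810 for Pold3 among the S phase genes and 0.413 for H2afz among the histone genes. In 83 rich cells of the 5 gates, the genes outside the list with the largest folds over the other 7319 gated cells were Pbk at 222, Hist1h1b at 212, Prc1 at 136, Knl1 at 122, Esco2 at 112, Aspm at 109, Ccna2 at 106, Pclaf at 105, Spc25 at 96.9 and Fam64a at 95.1. Of these 10, 7 stood on the list of other mitosis genes and Hist1h1b on that of histones, and the folds describe cells that were chosen by the 50 genes.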

How the data were processed

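Cells of the P0 WT cortex were captured with the 10x Chromium 3′ kit and sequenced by a company. The authors deposited raw UMI counts per gene and cell, without normalization, and a table of the UMI count and gene count per cell. The submitters' processing notes name Cell Ranger, STAR, Seurat and mm9. The annotation, the rule for calling cells and the use of strand are not given in the sources used here, so no coordinates in mm9 are printed. Both columns of the cell table matched the sums of the counts in all 11062 cells.

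From the deposited counts, 4 cells with under 200 detected genes were left out, which left 11058. Levels are summed UMIs of a gate per 1e6 non-mitochondrial UMIs (CPM). Gates needed at least 1 Pdgfra and 2 Olig1 or Olig2 UMIs (OPC-like), 10 of the radial glia markers with at most 1 Olig1, Olig2 or Pdgfra UMI, 2 Eomes UMIs, 4 interneuron marker UMIs, or 5 neuron marker UMIs without Eomes. Cells that passed more than 1 gate (190) were left out, which is how doublets were treated, and no doublet caller was run. A total of 3466 cells passed no gate. Depth was compared after thinning each cell to 2000 UMIs (seed 11), which left out 2612 shallower cells. Intervals are exact Poisson, binomial or conditional binomial at 95%. Fold calls were tested before use on simulated counts with counting noise only, for genes not near the floor in neurons. That test does not cover the many genes of the list with low neuron levels.

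All 50 genes may be named. From each other list only the 2 genes with the highest and the 2 with the lowest neuron ratio could be named, and not all of them are. The 10 leading genes outside the list are named besides. The members and the lists were chosen with earlier results of these data known. Promoter windows came from RefSeq (GRCm38.p6), and exon overlaps from GENCODE M21, matched by symbol. Python 3.11.15, numpy 2.4.6, scipy 1.17.1 and pandas 2.3.3 were used. Alternatives changed gate limits, cell filters, the treatment of mixed cells, the denominator, thinning and thresholds.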

Additional observations from a re-analysis of the deposited data

How the results depend on the processing

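No paired analysis was possible because the series gave a single library. Each gate stayed above neurons under the alternatives tried, but the order among the 4 other gates did not hold: by summed level Eomes-positive cells lay above OPC-like cells with gate limits multiplied by 2, above radial glia-like cells with that setting and with mixed cells kept (4237 CPM), and below interneuron-like cells with limits divided by 2. Counts of genes past the fold stayed within 1.5 times their value. Values without a gate name run in the order OPC-like, radial glia-like, Eomes-positive and interneuron-like. Dividing by the median gene ratio, which was 1.08, 1.02, 1.06 and 1.05, gave 39, 39, 40 and 36 genes past a fold of 4 (6.04%, 9.89%, 3.55% and 2.75% of all genes). At a fold of 2 there were 46, 45, 45 and 44 (16.2%, 20.4%, 11.5% and 7.72% of all genes). With gate limits divided by 2, the summed levels were 5748, 4112, 2208 and 2829 CPM, the ratios to neurons 5.18, 3.71, 1.99 and 2.55, and 2.93% of Eomes-positive cells were rich. With limits multiplied by 2, the levels were 4756, 4463, 5286 and 3720.2 CPM, and 1116 CPM in neurons, with ratios of 4.26 for OPC-like, 4.73 for Eomes-positive and 3.33 for interneuron-like cells. With mixed cells kept, the levels were 5305 CPM in OPC-like, 4137 in radial glia-like and 2588 CPM in interneuron-like cells, and the last 2 ratios were 3.74 and 2.34. Without cells over 25000 UMIs, radial glia-like and Eomes-positive cells had 4582 and 4378 CPM and ratios of 4.17 and 3.98. Without cells of other types, a setting chosen after seeing the data, radial glia-like and interneuron-like cells had 4547 and 3833 CPM and ratios of 4.12 and 3.47. With mitochondrial UMIs in the denominator, the levels were 5017, 4263.5, 4117 and 3245 CPM, and 1069 CPM in neurons. Without the genes that stayed on, which were chosen by their neuron level in these same cells, the ratios were 31.3, 26.7, 24.8 and 18.0. Of neurons, 0.0159% were then rich. At a limit of 40 UMIs, 6.43% of OPC-like, 7.54% of Eomes-positive, 3.34% of interneuron-like and 0.0159% of excitatory neuron-like cells were rich. The number of genes that stayed on was 4 at a ratio of 0.5, and 7 with the Olig-positive, Pdgfra-negative cells among the gates, a setting chosen after seeing the data, and 9 to 13 in the others, against 68.2%, 86.6% and 86.9% to 91.8% of all genes. The share of rich cells that were also S phase rich was 60.6% at a limit of 6 UMIs and 15% at 15. The cause of these shifts was not tested. Other thinning seeds, also chosen after seeing the data, moved no share past its counting interval. Genes with few neuron UMIs, such as Aurkb and Cdc25c, are limited by depth.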

Other observations

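Some rich cells lay outside the 4 progenitor and interneuron gates and the Olig-positive, Pdgfra-negative cells. Of the 160 rich cells, 12 passed more than 1 gate, with a median of 18115 UMIs. Of these 12, 3 passed the OPC-like and interneuron-like gates, 2 the OPC-like and excitatory neuron-like gates, 2 the radial glia-like and interneuron-like gates and 2 the radial glia-like and excitatory neuron-like gates. A further 17 rich cells passed no gate and held under 2 Olig1 or Olig2 UMIs or a Pdgfra UMI, with a median of 8354 UMIs. Of these 17, 11 held a Dlx1 or Dlx2 UMI, 8 an Olig1, Olig2 or Pdgfra UMI, 6 at least 5 UMIs of the radial glia-like gate genes and 2 an Eomes UMI. That 0 held 5 UMIs of the excitatory neuron markers was nearly fixed, since such a cell without Eomes passes that gate. The 4 rich excitatory neuron-like cells held at least 5 neuron marker UMIs by the rule of their gate. Of these 4, 2 also held an Olig1, Olig2 or Pdgfra UMI and 2 a Gad1, Gad2 or Dlx6os1 UMI. Over all rich cells, 3 held at least 3 UMIs of mural markers, 1 of microglia markers and 0 of endothelial, Cajal-Retzius or red blood cell markers.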
